A study of Mus musculus with 30 samples.

Results

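The genes described here are those with which a liver cell burns fatty acids: the receptor Ppara, the enzymes and carriers of mitochondrial and peroxisomal beta-oxidation, 1 enzyme of ketone body synthesis and a few targets of the receptor. The list was set by gene name and held 31 genes, of which 30 had a probe set and were followed here, among 22180 genes named on the array. Acsl1 was not analysed here. All 30 livers came from male mouse pups of the C57Bl/6NCr strain. UN pups were carried by dams given 40% fewer calories in late gestation, and NN pups by dams that fed freely. All pups were fostered by NN dams. Cohort 1 was sampled at 9 weeks on regular chow (UN and NN, 3 livers each). Cohort 2 (UN and NN, 4 livers each) was 17 weeks old and had eaten a high-fat diet (HFD) for the last 8 of these. Cohort 3 was sampled at 22 weeks after 13 weeks of HFD, with the bile acid tauroursodeoxycholate (TUDCA) or vehicle given by gavage over the last 5 weeks. Its groups were UN-TU, UN-Veh, NN-TU and NN-Veh, with 4 livers each. Age, time on HFD and cohort changed together and cannot be told apart. Between 9 and 22 weeks gavage changed with them as well. Litter, hour of sampling and hours since feeding are not given per animal in the sources used here.

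Long-chain fatty acids enter the mitochondrion as carnitine esters. Cpt1a forms the ester, Slc25a20 carries it across the inner membrane and Cpt2 releases the acyl-CoA, which is then shortened in repeated rounds of dehydrogenation, hydration, oxidation and thiolysis. The electrons pass through the electron transfer flavoprotein (Etfa, Etfb) and its dehydrogenase (Etfdh), and in the fasted liver much of the acetyl-CoA leaves as ketone bodies, the last step being taken by Bdh1. Very long and branched chains begin in the peroxisome. Ppara, a nuclear receptor that binds fatty acids, switches on many of these genes, as well as Pdk4, which restrains the entry of pyruvate, and Vnn1, which makes cysteamine from pantetheine.

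Values are log2 signals, so that a difference of 1 is a 2-fold change, and each is a level of its own probe set that cannot be set against the level of another. Of the 30 genes, 28 had a mean signal between the 84.6th and the 99.6th percentile of the 25341 probe sets tested. Pdk4 was dimmer, at the 69.2nd percentile. Hadhb, the thiolase subunit of the trifunctional protein, was near the middle of the array at the 44.8th percentile, with 3.53 to 4.79 over all livers. Array medians ran from 4.11 to 4.25, and whether so dim a probe set follows its transcript was not tested. Acaa1a and Acaa1b are near-identical neighbours on chromosome 9, so their signals may share probes. In whole liver RNA, fewer hepatocytes and less RNA per hepatocyte cannot be told apart.

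One liver stood far from the rest. UN replicate 14 at 17 weeks correlated with the rest at a median r of 0.837 over all probe sets, and UN replicate 13 at 0.958, whereas the other 28 arrays lay at 0.977 to 0.985. The mean of the 7 hepatocyte markers measured was 8.36 in replicate 14 and 10.29 in replicate 13, against 10.63 to 10.79 in NN livers at 17 weeks. Macrophage markers (7 genes) averaged 8.66 in replicate 13 and 5.63 in replicate 14, and lymphocyte markers (6 genes) 4.61 and 4.68, against ranges of 6.61 to 7.19 and 3.88 to 4.11 in NN livers. Stellate cell and fibroblast markers (7 genes) averaged 6.22 in replicate 14, against 6.85 to 7.25 in NN livers. Endothelial markers (5 genes) averaged 6.17 there, against 7.46 to 7.84. Over all probe sets the SD was 1.48 in replicate 14 and 1.90 in replicate 13, against 1.91 to 2.01 on the other 28 arrays. Whether RNA quality, the array or the cells present made these livers differ was not tested. Results at 17 weeks are therefore given with and without these livers. Adipocyte markers (4 genes) averaged 3.66 to 4.05 over all arrays, below the median probe set of any array, of which the lowest was 4.11.

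The proximal promoters were read because the genes share a regulator. RefSeq windows on mouse build GRCm38.p6, from 250 bases before to 50 after the start, were at hand for 25 of the genes (26 windows). The PPAR response element was searched on both strands as AGGTCANAGGTCA, a direct repeat with 1 free base, over its 12 fixed letters. No window of these genes held it with 0 or 1 mismatches, against 0.0396% and 0.554% of all 32851 windows. With up to 2 mismatches it was found in 3 of 26 windows (Echs1, Etfa and Slc25a20), against 3.86% of all windows. The single copy AGGTCA was in 4 of 26 windows (Acadm, Acadvl, Cpt1a and Echs1), against 16.3%. In Slc25a20 the match, AGGTGAAAGGTCG, lay at bases 7 to 19 after the start. A match of letters is not a bound site, and its lack in this window says nothing of elements elsewhere. The 250 bases before the start are shown for the gene that passed the test between UN-Veh and NN-Veh (Pex11a), the gene that passed it for TUDCA (Acaa1b) and the other pair with the closest matches. Capitals mark the stretch closest to the repeat, on either strand, which had 5 mismatches in Pex11a, 4 in Acaa1b and 2 in each of Echs1 and Etfa.
Pex11a, chr7:79743132-79743381, minus strand: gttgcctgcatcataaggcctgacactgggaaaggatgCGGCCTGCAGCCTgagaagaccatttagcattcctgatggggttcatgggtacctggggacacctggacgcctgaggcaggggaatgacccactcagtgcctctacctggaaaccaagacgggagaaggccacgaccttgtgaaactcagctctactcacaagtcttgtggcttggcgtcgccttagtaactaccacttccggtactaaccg
Acaa1b, chr9:119157094-119157343, minus strand: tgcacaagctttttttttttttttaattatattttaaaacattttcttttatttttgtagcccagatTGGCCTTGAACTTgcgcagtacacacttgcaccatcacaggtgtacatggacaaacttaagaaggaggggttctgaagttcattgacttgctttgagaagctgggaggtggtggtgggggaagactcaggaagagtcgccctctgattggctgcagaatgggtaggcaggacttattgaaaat
Echs1, chr7:140116422-140116671, minus strand: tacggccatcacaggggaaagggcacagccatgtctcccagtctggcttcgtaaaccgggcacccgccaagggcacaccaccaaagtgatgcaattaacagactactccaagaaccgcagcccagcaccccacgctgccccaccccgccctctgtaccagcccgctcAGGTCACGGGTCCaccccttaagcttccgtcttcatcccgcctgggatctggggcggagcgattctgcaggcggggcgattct
Etfa, chr9:55512244-55512493, minus strand: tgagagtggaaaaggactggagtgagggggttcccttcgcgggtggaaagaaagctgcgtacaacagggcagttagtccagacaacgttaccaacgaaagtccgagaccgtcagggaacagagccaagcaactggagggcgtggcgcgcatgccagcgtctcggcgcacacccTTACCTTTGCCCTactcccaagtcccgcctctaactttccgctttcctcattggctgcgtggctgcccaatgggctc

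Before HFD, at 9 weeks, the genes of fatty acid oxidation were not seen to differ between UN and NN livers. Of the 30 genes, 11 were higher in UN livers, and the median log2 difference was -0.02, against -0.005 over all probe sets. None passed an adjusted p under 0.05 in limma (0% of all probe sets in either direction), and none an unadjusted p under 0.05 (1.75% of all probe sets higher and 1.85% lower). The 3 largest differences were those of Pex11a, Cpt1a and Bdh1. Pex11a, which makes peroxisomes divide, read 7.33, 8.11 and 7.98 in UN livers and 7.14, 7.81 and 7.61 in NN livers. Cpt1a, the entry step of the carnitine shuttle, read 9.97, 9.86 and 10.03 in UN livers and 10.21, 10.43 and 9.98 in NN livers. Bdh1 read 7.28, 7.68 and 7.50 in UN livers and 7.42, 7.86 and 7.74 in NN livers. The groups overlapped for each of these genes, with differences of 0.29 (95% confidence interval -0.21 to 0.79), -0.25 (-0.55 to 0.05) and -0.19 (-0.52 to 0.15). Echs1, the short-chain hydratase, was the only one of the 30 genes whose UN livers all lay below the NN livers (9.21, 9.18 and 9.16, against 9.34, 9.37 and 9.34), as did 4.85% of all probe sets. NN replicate 1 had the lowest mean of the 30 genes in its cohort, and it lay far below the other livers in Vnn1, at 7.18, 7.99 and 7.93 in UN livers and 5.96, 8.55 and 8.17 in NN livers. Without this replicate 4 of 30 genes were higher in UN livers. Vnn1 alone then had an unadjusted p under 0.05 (2.02% of all probe sets higher and 2.65% lower). Its difference was -0.66 (adjusted p = 0.954).

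At 17 weeks the comparison turned on replicate 14. With all arrays, 3 of 30 genes were higher in UN livers, the median difference was -0.51, against -0.05 over all probe sets, and none passed an adjusted or an unadjusted p under 0.05 (1.29% of all probe sets higher and 1.71% lower at the latter). The 3 largest differences were in Ehhadh (-0.73, -1.84 to 0.38), Etfa (-0.73, -1.94 to 0.49) and Acadl (-0.64, -1.88 to 0.60). Ehhadh, the bifunctional enzyme of the peroxisome, read 9.94, 10.01, 9.13 and 7.59 in UN livers and 9.84, 10.10, 9.998 and 9.65 in NN livers. Etfa read 10.16, 10.11, 9.95 and 7.57 in UN livers and 10.17, 10.15, 10.25 and 10.14 in NN livers. Acadl, the long-chain acyl-CoA dehydrogenase, read 10.28, 10.30, 10.002 and 7.64 in UN livers and 10.18, 10.23, 10.20 and 10.17 in NN livers. In each of these genes the last UN value, that of replicate 14, lay more than 1.5 log2 units below all others, and replicates 11 and 12 lay within or close to the NN range. Without replicate 14, 20 of 30 genes were higher in UN livers with a median of 0.04, and Pex11a alone passed an unadjusted p under 0.05 (3.4% of all probe sets higher). Without replicates 13 and 14, 28 of 30 were higher with a median of 0.15, and 5 passed that p (4.88% of all probe sets higher): Pex11a, Vnn1, Bdh1 and the dienoyl-CoA reductases Decr1 (mitochondrial) and Decr2 (peroxisomal). None of the 30 genes passed an adjusted p under 0.05 in either case.

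At 22 weeks the genes of fatty acid oxidation were higher in UN-Veh than in NN-Veh livers as a broad, shallow shift, of which 1 gene passed the test over the whole array. Of 30 genes 28 were higher, and the median log2 difference was 0.21, against 0.015 over all probe sets. Pex11a passed an adjusted p under 0.05 (0.312% of all probe sets higher). An unadjusted p under 0.05 was passed by 14 genes, all higher in UN-Veh livers, against 5.89% of all probe sets higher and 3.42% lower. In 18 genes every UN-Veh liver lay above every NN-Veh liver, against 4.72% of all probe sets, and none had every UN-Veh liver below (2.88% of all probe sets). Leaving out single arrays gave 27 or 28 higher genes and 11 to 16 genes at the unadjusted p.

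Peroxisomal genes held the largest difference. Pex11a (chromosome 7, 79735957 to 79743131) read 8.67, 8.58, 8.71 and 8.68 in UN-Veh livers, against 7.28, 7.51, 7.83 and 7.88 in NN-Veh livers. Every UN-Veh liver was above every NN-Veh liver, and the UN-Veh values lay within 0.13 of each other. Pex11a rose by 1.04 (SE 0.20, 95% confidence interval 0.62 to 1.45, adjusted p = 0.0223 by limma), a fold of 2.05. The call rested on few livers. Its adjusted p was between 0.0515 and 0.108 when NN-Veh replicate 15 or 16 or any UN-Veh liver (23 to 26) was left out, with a difference of 0.92 to 1.12 over all single omissions. The call was also lost under the methods' ANOVA (adjusted p = 0.198), with all 30 arrays in 1 limma fit (0.905) and with all 41345 probe sets tested (0.118). All 7 peroxisomal genes were higher in UN-Veh livers, from 0.15 to 1.04, and 4 passed the unadjusted p (Pex11a, Decr2, Eci2 and Hsd17b4). Decr2 read 10.74, 10.87, 10.81 and 10.94 in UN-Veh livers and 10.46, 10.44, 10.56 and 10.50 in NN-Veh livers, with a difference of 0.35 (0.13 to 0.57, adjusted p = 0.195). Eci2, an enoyl-CoA isomerase that moves the double bond of unsaturated chains, read 8.61, 8.43, 8.51 and 8.60 in UN-Veh livers and 8.37, 8.10, 8.23 and 8.12 in NN-Veh livers. Neither gene overlapped between the groups. Ehhadh read 9.80, 9.995, 9.90 and 9.96 in UN-Veh livers and 9.80, 9.60, 9.80 and 9.85 in NN-Veh livers, with an interval of -0.11 to 0.41.

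In the carnitine shuttle all 5 genes were higher in UN-Veh livers and 3 passed the unadjusted p (Crat, Slc25a20 and Cpt1a). Crat, which swaps acetyl groups between CoA and carnitine, read 8.14, 8.20, 8.17 and 8.29 in UN-Veh livers, against 7.58, 7.42, 7.92 and 7.76 in NN-Veh livers. Its difference was 0.53 (SE 0.13, 0.26 to 0.80) with an adjusted p of 0.0798. Slc25a20 read 9.30, 9.31, 9.33 and 9.27 in UN-Veh livers and 9.01, 8.89, 8.98 and 9.05 in NN-Veh livers (difference 0.32, 0.13 to 0.51, adjusted p = 0.15). Both genes separated the groups without overlap. Cpt1a read 10.55, 10.44, 10.41 and 10.64 in UN-Veh livers and 10.37, 10.23, 10.39 and 10.24 in NN-Veh livers, a difference of 0.20 (0.01 to 0.40, adjusted p = 0.512). Cpt2 read 9.17, 9.13, 9.18 and 9.21 in UN-Veh livers and 9.04, 9.05, 9.14 and 8.89 in NN-Veh livers, with an interval of -0.04 to 0.33.

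Mitochondrial beta-oxidation genes were higher in UN-Veh livers in 11 of 11 cases, from 0.007 to 0.31. The unadjusted p was passed by 4 (Decr1, Hadha, Hadh and Acadm). Hadhb, with a signal near the array median, is one of the 11. Hadha, the trifunctional protein subunit with hydratase and dehydrogenase activity, read 10.56, 10.53, 10.57 and 10.58 in UN-Veh livers and 10.40, 10.19, 10.41 and 10.29 in NN-Veh livers. Acadm, the medium-chain acyl-CoA dehydrogenase, read 11.32, 11.33, 11.33 and 11.38 in UN-Veh livers and 11.17, 11.10, 11.15 and 11.16 in NN-Veh livers. The groups did not overlap for either gene, with differences of 0.24 (0.06 to 0.41) and 0.19 (0.02 to 0.36). The electron transfer genes did not pass at the unadjusted p. Etfdh was higher by 0.11 (-0.08 to 0.30), and Etfa and Etfb, the only 2 of the 30 genes that were lower, differed by -0.06 (-0.25 to 0.12) and -0.11 (-0.28 to 0.06). Bdh1, the ketone body gene, read 8.14, 8.20, 8.13 and 8.23 in UN-Veh livers and 7.76, 7.71, 7.98 and 7.87 in NN-Veh livers, a difference of 0.35 (0.11 to 0.59, adjusted p = 0.249) without overlap.

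**Figure D1:**
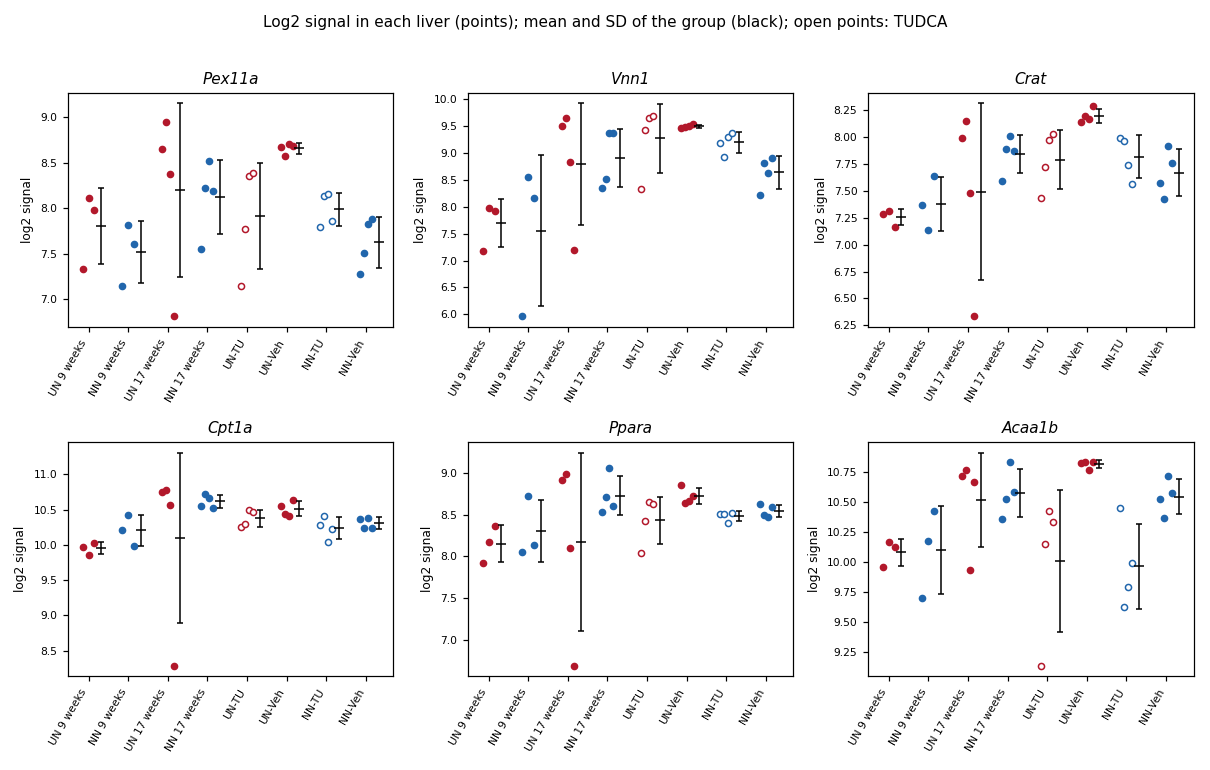
log2 signal of Pex11a, Vnn1, Crat, Cpt1a, Ppara and Acaa1b in each liver (points) with the mean and SD of each group (red, UN; blue, NN; open, TUDCA-treated). The 4 UN-Veh livers sit between 8.58 and 8.71 for Pex11a, all above the NN-Veh livers, and 1 of the UN livers at 17 weeks lies far below the rest for Cpt1a (8.29) and Ppara (6.70).

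Outside the pathway proper, the receptor itself did not pass the test. Ppara read 8.86, 8.64, 8.67 and 8.72 in UN-Veh livers and 8.63, 8.50, 8.47 and 8.59 in NN-Veh livers, every UN-Veh liver above the NN-Veh livers, with a difference of 0.18 (-0.05 to 0.40, adjusted p = 0.69). Vnn1 read 9.48, 9.49, 9.50 and 9.54 in UN-Veh livers and 8.21, 8.82, 8.64 and 8.90 in NN-Veh livers, a difference of 0.86 (SE 0.21, 0.41 to 1.31, adjusted p = 0.0825). Pdk4 read 5.88, 6.00, 6.14 and 5.80 in UN-Veh livers and 5.16, 5.42, 5.62 and 5.96 in NN-Veh livers, overlapping through 1 NN-Veh liver (0.41, 0.01 to 0.81). When UN-TU replicate 27, which is in neither group but adds to the shared estimate of spread, was left out, 4 genes passed the adjusted p (0.714% of all probe sets higher): Pex11a, Vnn1 (0.0024), Crat (0.0302) and Slc25a20 (0.0449).

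The other genes of the pathway moved less evenly. Of 44 further genes of fatty acid oxidation and ketone bodies, 28 were higher in UN-Veh livers with a median of 0.08. The carrier Slc25a47 alone of these passed the adjusted p, at 10.50, 10.66, 10.72 and 10.83 in UN-Veh livers and 9.80, 9.96, 10.08 and 9.99 in NN-Veh livers (0.72, adjusted p = 0.0408). Of 24 other PPARA targets, 18 were higher with a median of 0.25, 4 rose and 1 fell by the adjusted p. Those that rose were the lipid droplet genes Cidea and Cidec, which the study had picked from these samples, by 3.29 and 2.51, the hormone gene Fgf21 by 0.83 and the monoacylglycerol lipase gene Mgll by 0.75, and Cyp4a12b fell by 0.58. Fgf21 read 6.07, 6.37, 6.10 and 6.17 in UN-Veh livers and 5.0, 5.21, 5.59 and 5.61 in NN-Veh livers, without overlap. Of 14 genes that respond to fasting or feeding, 10 were higher in UN-Veh livers with a median of 0.26, and 6 were higher and 2 lower at an unadjusted p under 0.05. By the adjusted p 1 of the 14 rose and 1 fell. The gene that rose was Fgf21, which is on this list too. The gene that fell was Igfbp1, a gene of the fasted liver, by 1.05 (adjusted p = 0.0411). Igfbp1 read 6.29, 6.39, 6.18 and 6.45 in UN-Veh livers and 7.21, 7.49, 7.27 and 7.56 in NN-Veh livers. Macrophage markers were lower in 6 of 7 cases (their mean was 6.90 to 7.34 in UN-Veh livers and 7.27 to 7.84 in NN-Veh livers), 4 of them at an unadjusted p under 0.05. Stellate cell and fibroblast markers were higher in 6 of 7 cases (7.14 to 7.45 in UN-Veh livers and 7.005 to 7.24 in NN-Veh livers). Of the hepatocyte markers 2 of 7 were higher, with 10.40 to 10.52 in UN-Veh livers and 10.50 to 10.74 in NN-Veh livers. The part of these cells in the shift was not tested.

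Between the TUDCA-treated groups 1 of the 30 genes reached an unadjusted p under 0.05 and none passed the test over the array. Of 30 genes 24 were higher in UN-TU than in NN-TU livers, the median difference was 0.11, against 0.056 over all probe sets, and none passed an adjusted p under 0.05 (0.347% of all probe sets higher and 0.126% lower). Hsd17b4, the peroxisomal multifunctional enzyme for branched chains, alone had an unadjusted p under 0.05, where 13.3% of the whole array was higher and 3.78% lower. It read 10.64, 10.84, 10.94 and 11.02 in UN-TU livers and 10.64, 10.71, 10.45 and 10.49 in NN-TU livers, a difference of 0.29 (0.11 to 0.47, adjusted p = 0.114). Hadhb, at 4.06, 4.3, 4.79 and 4.37 in UN-TU livers and 4.13, 3.94, 4.34 and 4.17 in NN-TU livers, and Decr2, at 10.20, 10.58, 10.68 and 10.79 in UN-TU livers and 10.31, 10.52, 10.22 and 10.32 in NN-TU livers, followed with 0.23 (-0.03 to 0.50) and 0.22 (-0.00 to 0.44). Hadhb lay near the array median here as well. In no gene did the groups separate fully (5.87% of all probe sets higher without overlap). UN-TU replicate 27 had the lowest mean of the 30 genes at 22 weeks, 8.90, against 9.17 to 9.33 in the other UN-TU livers. Without it 27 genes were higher with a median of 0.19, and 13 had an unadjusted p under 0.05 (12.5% of all probe sets higher). Repeated quantile normalization turned the median of all livers to -0.041. Stellate cell and fibroblast markers were higher in 7 of 7 cases (7.11 to 7.34 in UN-TU livers and 6.71 to 7.04 in NN-TU livers), 6 of them at an unadjusted p under 0.05, and macrophage markers in 6 of 7 (7.17 to 7.53 in UN-TU livers and 6.75 to 7.29 in NN-TU livers). Hepatocyte markers were higher in 6 of 7 cases (10.49 to 10.85 in UN-TU livers and 10.25 to 10.62 in NN-TU livers), and all 14 fasting and feeding genes were higher, with a median of 0.48. Their part was not tested.

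In UN pups most of the genes were lower with TUDCA, all 7 peroxisomal genes and 4 of 5 carnitine genes among them, although none passed the test over the array. Of 30 genes 26 were lower in UN-TU than in UN-Veh livers, with a median difference of -0.16, against -0.011 over all probe sets. None passed an adjusted p under 0.05 (0.268% of all probe sets lower and 0.138% higher), and 11 had an unadjusted p under 0.05, all lower, against 5.64% of all probe sets lower and 4.96% higher. In 10 genes every UN-TU liver lay below every UN-Veh liver (3.68% of all probe sets). The UN-Veh livers serve both this comparison and that with NN-Veh, so that their values enter the 2 with opposite signs.

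Acaa1b, a peroxisomal thiolase, read 9.13, 10.14, 10.42 and 10.33 in UN-TU livers, against 10.83, 10.83, 10.77 and 10.83 in UN-Veh livers, a difference of -0.81 (SE 0.21, -1.24 to -0.38, adjusted p = 0.094). Pex11a read 7.15, 7.77, 8.35 and 8.39 in UN-TU livers and had a difference of -0.75 (SE 0.20, -1.16 to -0.33, adjusted p = 0.112). Eci1, the mitochondrial enoyl-CoA isomerase, read 8.51, 9.03, 9.23 and 9.08 in UN-TU livers and 9.32, 9.42, 9.40 and 9.37 in UN-Veh livers (-0.42, -0.66 to -0.18, adjusted p = 0.133). In all 3 genes the UN-TU livers lay below the UN-Veh livers, with replicate 27 lowest. Crat read 7.44, 7.72, 7.97 and 8.03 in UN-TU livers, again all below the UN-Veh livers (-0.41, -0.68 to -0.14, adjusted p = 0.213). Ppara read 8.04, 8.42, 8.65 and 8.62 in UN-TU livers, with a difference of -0.29 (-0.51 to -0.06, adjusted p = 0.32), and 1 UN-TU liver reached above the lowest UN-Veh liver.

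Other genes stayed close. Vnn1 read 8.33, 9.43, 9.66 and 9.70 in UN-TU livers (difference -0.22, -0.67 to 0.22), Bdh1 7.71, 8.09, 8.23 and 8.22 (-0.12, -0.36 to 0.12), Cpt1a 10.25, 10.29, 10.49 and 10.47 (-0.14, -0.33 to 0.06) and Hadha 10.39, 10.42, 10.55 and 10.59 (-0.07, -0.25 to 0.10). Their intervals still held differences of up to 0.67 downward and 0.22 upward. Pdk4 read 5.48, 5.81, 6.42 and 6.10 in UN-TU livers, with 0.00 (-0.39 to 0.40). Pex11a alone passed the adjusted p when UN-TU replicate 30 was left out (-0.90, adjusted p = 0.0472). Without replicate 27, 22 of 30 genes were lower in UN-TU livers, the median was -0.10, and 4 had an unadjusted p under 0.05 (4.53% of all probe sets lower): Acaa1b (-0.51), Pex11a (-0.49), Crat (-0.29) and Eci1 (-0.26).

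Clock genes differed between the same livers. Of 16 measured, 4 were higher and 7 lower in UN-TU than in UN-Veh livers at an unadjusted p under 0.05 (4.96% and 5.64% of all probe sets), none at the adjusted p. Arntl, the activator of the clock, read 8.0, 7.19, 6.89 and 7.25 in UN-TU livers, against 6.53, 6.17, 6.64 and 5.60 in UN-Veh livers (difference 1.1, SE 0.28), and Dbp, one of its targets, read 6.76, 7.38, 8.33 and 7.78 in UN-TU livers and 8.58, 8.70, 8.47 and 9.20 in UN-Veh livers (-1.18, SE 0.34). UN-TU replicate 27, lowest for Acaa1b and Pex11a, was highest of the 4 for Arntl and lowest for Dbp. Of the 14 fasting and feeding genes 6 were higher in UN-TU livers with a median of -0.19, and 2 were higher and 1 lower at an unadjusted p under 0.05. One of these, Igfbp1, rose by 1.15 (adjusted p = 0.0251), to 7.97, 6.80, 7.36 and 7.77 in UN-TU livers. The part of the clock and of feeding in the difference was not tested. Hepatocyte markers were higher in 7 of 7 cases and macrophage markers in 7 of 7 (7.17 to 7.53 in UN-TU livers and 6.90 to 7.34 in UN-Veh livers), 2 of each at an unadjusted p under 0.05. Of the 44 further oxidation genes 12 were higher, Slc25a47 fell by 0.75 (adjusted p = 0.0342) and Hacl1, a lyase of peroxisomal alpha-oxidation, rose by 0.47 (adjusted p = 0.0176). Of the 24 other PPARA targets 5 were higher, and Cidea and Cidec fell by 2.36 and 2.24. The study had picked these 2 genes from the same samples, in part for their fall with TUDCA.

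In NN pups TUDCA had no common direction among these genes. Of 30 genes 10 were higher in NN-TU than in NN-Veh livers with a median of -0.06, against -0.044 over all probe sets, and repeating the quantile normalization turned this median to 0.06. None passed an adjusted p under 0.05 (0.292% of all probe sets higher and 1.06% lower). An unadjusted p under 0.05 was passed by 2 higher genes and 5 lower genes, against 4.19% and 11.5% of all probe sets. Eci2 came nearest, at 8.47, 9.06, 8.64 and 8.53 in NN-TU livers, against 8.37, 8.10, 8.23 and 8.12 in NN-Veh livers (0.47, 0.22 to 0.72, adjusted p = 0.053). Vnn1 read 9.20, 8.93, 9.31 and 9.37 in NN-TU livers and had a difference of 0.56 (0.11 to 1.01, adjusted p = 0.199). These were the only 2 genes with every NN-TU liver above every NN-Veh liver (2.17% of all probe sets), while Acadm, Eci1 and Hsd17b4 had every NN-TU liver below (5.8%). Acaa1b read 10.45, 9.62, 9.79 and 9.99 in NN-TU livers and 10.52, 10.37, 10.71 and 10.57 in NN-Veh livers (-0.58, -1.01 to -0.15, adjusted p = 0.159). Ehhadh read 9.83, 9.35, 9.27 and 9.17 in NN-TU livers (-0.36, -0.62 to -0.10, adjusted p = 0.149). For both, NN-TU replicate 19 lay within the range of the NN-Veh livers. Pex11a read 7.79, 8.13, 8.15 and 7.86 in NN-TU livers (0.36, -0.05 to 0.78). Without UN-TU replicate 27 in the shared fit, 3 genes passed the adjusted p (0.347% of all probe sets higher and 1.25% lower). Eci2 (0.0487) and Vnn1 (0.0288) were higher and Acaa1b (0.0286) lower. The count was 2 without NN-TU replicate 19, where 118 of 25341 probe sets were higher and 595 lower. It was 1 without UN-TU replicate 30, with 90 and 278 probe sets. Of the 44 further oxidation genes 6 were higher, and Acad10, Pcca and Mmut fell by 0.46, 0.43 and 0.39. Macrophage markers were lower in 7 of 7 cases (6.75 to 7.29 in NN-TU livers and 7.27 to 7.84 in NN-Veh livers), as were stellate cell and fibroblast markers (6.71 to 7.04 in NN-TU livers and 7.005 to 7.24 in NN-Veh livers), and their part was not tested.

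Averaged over UN and NN pups, Acaa1b fell with TUDCA. The mean of both TUDCA differences was -0.70 (SE 0.15, -1.0 to -0.39, adjusted p = 0.0169), and 1 of 30 genes passed, against 1.27% of all probe sets lower. It stayed between -0.78 and -0.55 when single arrays were left out, with adjusted p between 0.0050 and 0.0409. The call was lost under the methods' ANOVA (adjusted p = 0.099), with all 30 arrays in 1 limma fit (0.0951) and with all 41345 probe sets tested (0.062). The count of genes past the threshold was 3 without NN-TU replicate 19 and 2 without UN-TU replicate 29, all lower. Without NN-TU replicate 19, 140 of 25341 probe sets were higher and 421 lower. Eci1 (-0.32, adjusted p = 0.0507) and Ehhadh (-0.34, adjusted p = 0.0563) came next. At an unadjusted p under 0.05 there were 11 lower genes and 1 higher (Eci2), against 10.2% and 4.04% of all probe sets.

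The difference between the TUDCA differences, UN minus NN, was tested as an interaction. None of the 30 genes passed an adjusted p under 0.05 (0% of all probe sets), and 4 had an unadjusted p under 0.05, all negative (3.93% of all probe sets negative and 7.95% positive). Pex11a had -1.11 (SE 0.28, -1.69 to -0.52, adjusted p = 0.126), from a TUDCA difference of -0.75 in UN pups and 0.36 in NN pups. Vnn1 had -0.78 (-1.41 to -0.15, adjusted p = 0.302), Crat -0.56 (-0.94 to -0.17, adjusted p = 0.245) and Eci2 -0.55 (-0.90 to -0.20, adjusted p = 0.213). In Acaa1b the TUDCA differences ran the same way in both kinds of pup, and the interaction was -0.22 (-0.83 to 0.38).

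**Figure D2:**
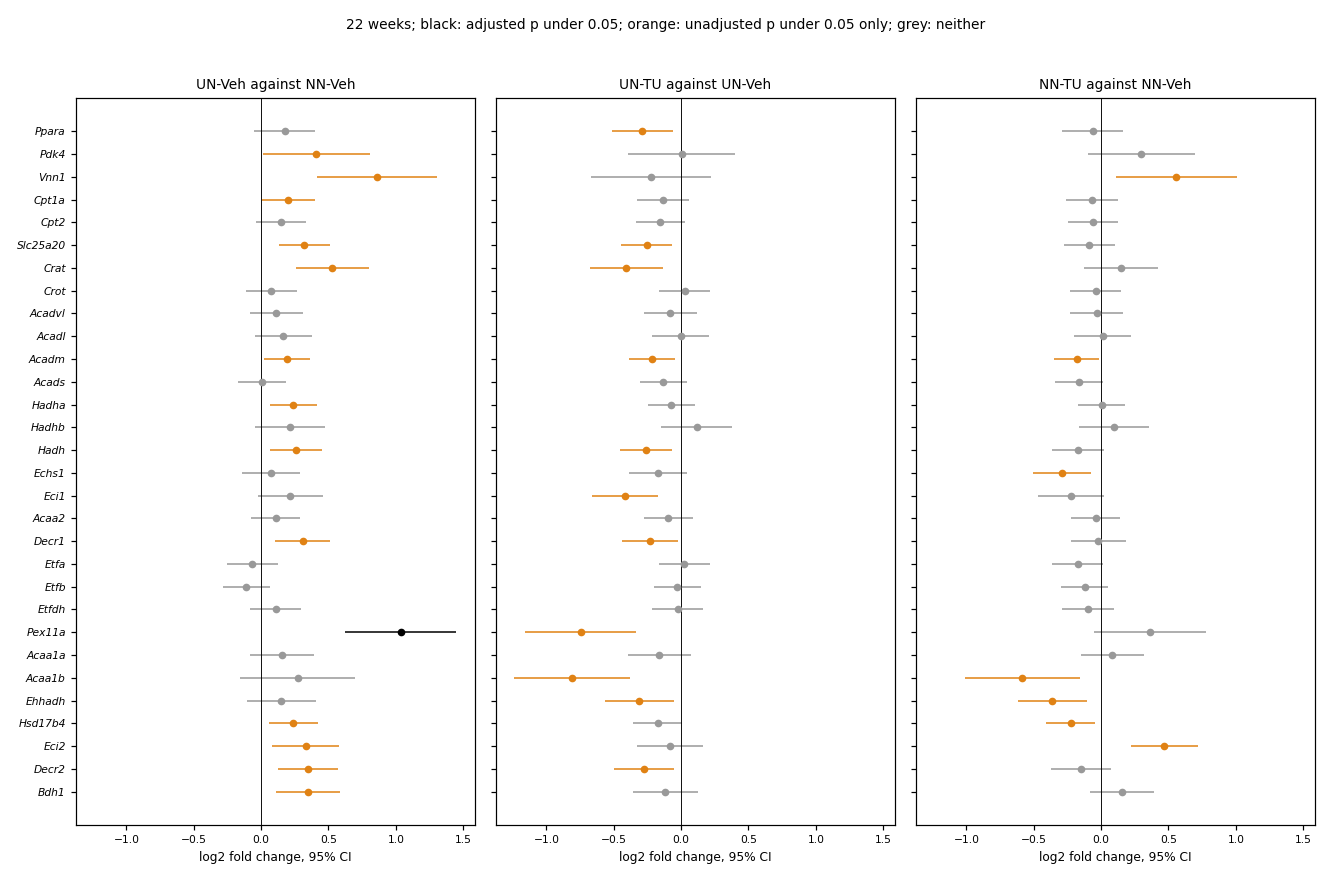
log2 difference of each of the 30 genes at 22 weeks with its 95% confidence interval, for UN-Veh over NN-Veh, UN-TU over UN-Veh and NN-TU over NN-Veh (black, adjusted p under 0.05; orange, unadjusted p under 0.05 only; grey, neither). Only Pex11a is black, at 1.04 in UN-Veh over NN-Veh, where 28 of 30 points lie above 0; in UN-TU over UN-Veh 26 of 30 lie below 0.

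From 9 weeks on chow to 17 weeks on HFD, 27 of the 30 genes were higher in NN livers, with a median of 0.18. None passed an adjusted p under 0.05 (0% of all probe sets higher and 0.0158% lower), and Acaa1b alone had an unadjusted p under 0.05 (0.47; 1.12% of all probe sets higher and 1.37% lower). It read 10.35, 10.53, 10.83 and 10.58 in NN livers at 17 weeks and 9.70, 10.17 and 10.42 in NN livers at 9 weeks, overlapping in 1 liver. UN replicates 13 and 14 enter this comparison through the shared estimate of spread. Without replicate 14, 11 genes were higher and 1 lower at an unadjusted p under 0.05 (4.17% and 3.9% of all probe sets), and without both 14 and 1 (5.88% and 5.36%). None passed the adjusted p in either case, against 0.0829% and 0.185% of all probe sets higher and 0.114% and 0.174% lower. In 10 genes every NN liver at 17 weeks was above every NN liver at 9 weeks, against 5.17% of all probe sets. Crot, which hands medium chains from the peroxisome to carnitine, was the only one with every liver below (11.15, 10.94, 11.11 and 11.14 at 17 weeks, against 11.37, 11.25 and 11.32 at 9 weeks; 4.81% of all probe sets).

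In UN livers over the same ages 10 of 30 genes were higher with a median of -0.29, and none passed an adjusted p under 0.05 (0.0316% of all probe sets higher and 0.0908% lower) or an unadjusted one (2.9% higher and 5.53% lower). The largest differences were 1.1 in Vnn1 (-0.28 to 2.48), -0.73 in Crot and -0.62 in Etfa. Vnn1 read 9.51, 9.66, 8.83 and 7.19 in UN livers at 17 weeks. Crot read 11.25, 11.25, 11.02 and 8.54 in UN livers at 17 weeks and 11.25, 11.30 and 11.19 in UN livers at 9 weeks. Replicate 14 was again the lowest of each. Without it 28 of 30 were higher with a median of 0.24, and 2 rose by the adjusted p (0.588% of all probe sets higher). These were Cpt1a, by 0.74 (adjusted p = 0.0093), and Hadh, the hydroxyacyl-CoA dehydrogenase, by 0.70 (adjusted p = 0.0091). Cpt1a read 10.75, 10.78 and 10.56 in the remaining UN livers at 17 weeks, against 9.97, 9.86 and 10.03 at 9 weeks. Hadh read 11.28, 11.20 and 11.34, against 10.73, 10.46 and 10.53. Without replicates 13 and 14 all 30 were higher with a median of 0.33, and 4 rose (1.55% of all probe sets higher), namely Cpt1a, Bdh1, Crat and Hadh. The difference of the UN and NN changes had a median of -0.47 with all arrays, with the values furthest from 0 in Etfa, Acadm and Acaa2 (-0.72, -0.63 and -0.63). It was 0.085 without replicate 14, and no gene passed the adjusted p in either case (0% of all probe sets), nor the unadjusted p with all arrays (1.28% of all probe sets positive and 1.17% negative). Acadm read 11.24, 11.26, 10.97 and 8.73 in UN livers and 11.14, 11.12, 11.20 and 11.22 in NN livers at 17 weeks. Acaa2, the mitochondrial thiolase, read 11.10, 11.09, 10.996 and 8.44 in UN livers and 11.02, 11.03, 11.08 and 11.03 in NN livers. Apart from replicate 14, the livers of both groups lay within 0.3 of each other in these 2 genes.

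**Figure D3:**
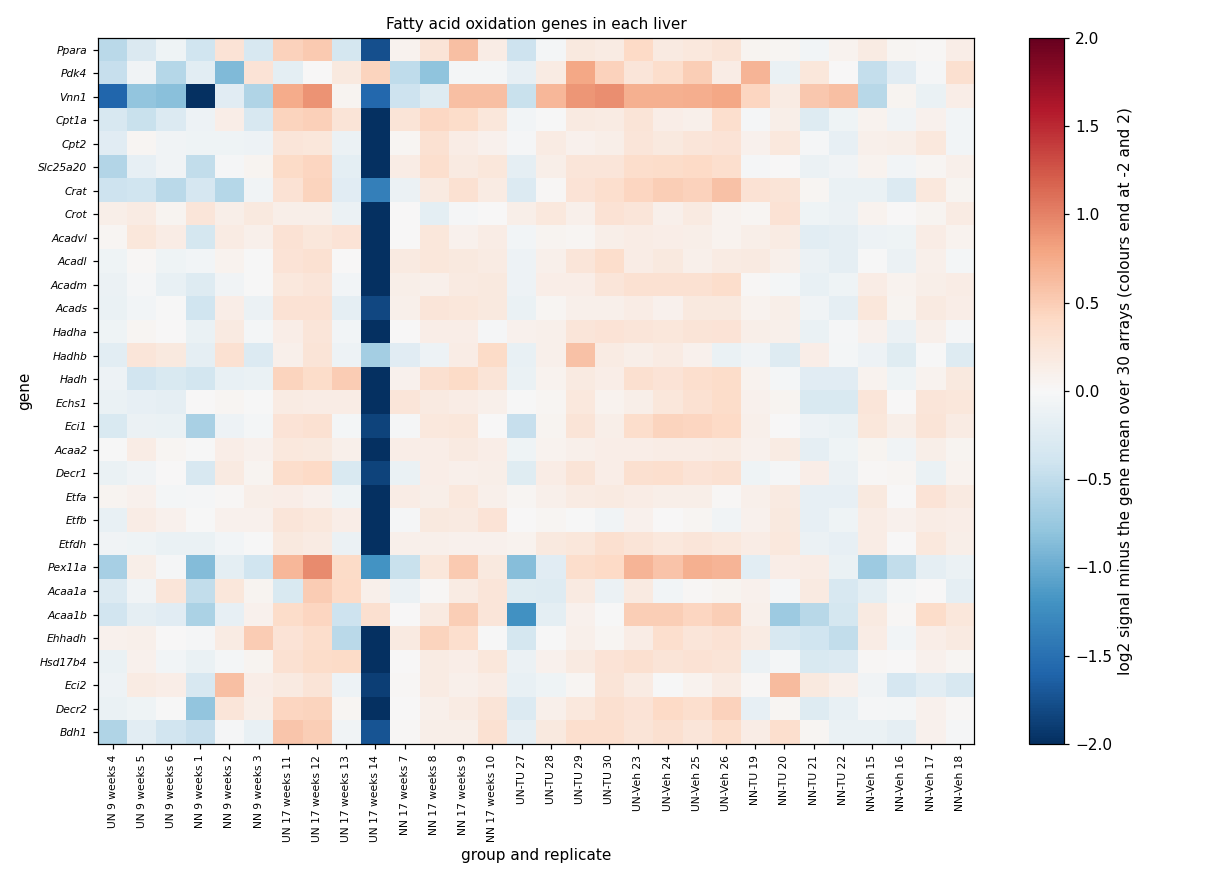
log2 signal of the 30 genes in each of the 30 livers minus the mean of the gene over all livers (colours end at -2 and 2). UN replicate 14 at 17 weeks is the column of low values, with a mean of the 30 genes of 7.33, and the 4 UN-Veh columns look alike, with means of 9.36 to 9.38.

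The broadest change was in UN pups between 9 weeks on chow and 22 weeks on HFD with vehicle. Of 30 genes 16 rose and none fell by the adjusted p, against 4.79% and 2.25% of all probe sets. In all 27 were higher, with a median of 0.35, against 0.019 over all probe sets. In 22 genes every UN-Veh liver was above every UN liver at 9 weeks (12% of all probe sets). The number that rose was 10 without UN replicate 4 at 9 weeks, the lowest over single omissions, and at most 17. Without UN replicate 4, 812 of 25341 probe sets rose. It was 0 with all 30 arrays, replicate 14 among them, in 1 fit. At an unadjusted p under 0.05 it was 20, and none was lower (12.5% of all probe sets higher and 7.24% lower).

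In the carnitine shuttle 4 of 5 genes rose, and Crot did not pass. Crat rose by 0.94 (SE 0.12, adjusted p = 0.000191), to 8.14, 8.20, 8.17 and 8.29 in UN-Veh livers, against 7.29, 7.31 and 7.17 in UN livers at 9 weeks. Cpt1a rose by 0.55 (0.33 to 0.77), Slc25a20 by 0.64 (0.36 to 0.91) and Cpt2 by 0.33 (0.14 to 0.51). Among the mitochondrial genes 5 of 11 rose, which were Hadh (0.59), Eci1 (0.59), Acadm (0.41), Echs1 (0.41) and Decr1 (0.37). Hadh read 11.16, 11.11, 11.17 and 11.21 in UN-Veh livers, against 10.73, 10.46 and 10.53 at 9 weeks, without overlap. The peroxisome gave 3 of 7, with Pex11a by 0.85 (adjusted p = 0.01), Acaa1b by 0.73 (adjusted p = 0.00277) and Hsd17b4 by 0.31 (adjusted p = 0.0269). Bdh1 rose by 0.69 (0.45 to 0.94, adjusted p = 0.00136), to 8.14, 8.20, 8.13 and 8.23 in UN-Veh livers, against 7.28, 7.68 and 7.50 in UN livers at 9 weeks. Ppara rose by 0.57 (0.27 to 0.86, adjusted p = 0.0195), with 7.93, 8.17 and 8.36 at 9 weeks. Vnn1 had the largest change, 1.80 (SE 0.41, 0.93 to 2.67, adjusted p = 0.0129), a fold of 3.49, with 7.18, 7.99 and 7.93 at 9 weeks. Etfdh rose by 0.32 and the other electron transfer genes did not pass, at 0.06 (Etfa, -0.11 to 0.24) and -0.01 (Etfb, -0.19 to 0.17). Pdk4 read 5.19, 5.57 and 5.08 in UN livers at 9 weeks and had a difference of 0.67 (0.21 to 1.14, adjusted p = 0.0795).

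In NN pups over the same ages 1 of 30 genes rose and none fell by the adjusted p, against 2.1% and 1.51% of all probe sets. Of 30 genes 23 were higher, with a median of 0.14, and at an unadjusted p under 0.05 9 were higher and 1 lower (9.32% and 7.49% of all probe sets). The gene that rose was Eci1, by 0.46 (0.20 to 0.71, adjusted p = 0.0432), with 9.19, 9.09, 9.23 and 9.13 in NN-Veh livers and 8.32, 8.87 and 8.93 in NN livers at 9 weeks. This call was lost under the methods' ANOVA, with all 30 arrays in 1 fit, with all 41345 probe sets tested, with array weights, and when NN replicate 1 at 9 weeks, UN replicate 5 or 6 at 9 weeks, or any single vehicle liver of either group was left out. Without NN replicate 2 at 9 weeks 4 genes rose, as did 485 of 25341 probe sets. Cpt1a had 0.10 (-0.12 to 0.32), Bdh1 0.15 (-0.09 to 0.40), Pex11a 0.10 (-0.29 to 0.50) and Crat 0.29 (0.03 to 0.55). In 5 genes every NN-Veh liver was above every NN liver at 9 weeks (8.07% of all probe sets). Without NN replicate 1 at 9 weeks, 18 of 30 were higher with a median of 0.037. None rose (1.4% of all probe sets), and Eci2 fell by 0.60 (1.33% of all probe sets, adjusted p = 0.0210). Eci2 read 8.12, 9.04 and 8.58 in NN livers at 9 weeks.

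The difference between the UN and NN changes was tested directly. It was positive in 26 of 30 genes with a median of 0.25, none passed an adjusted p under 0.05 (0.0118% of all probe sets higher), and 7 had an unadjusted p under 0.05, all positive (4.97% of all probe sets higher). Crat had 0.65 (0.29 to 1.02, adjusted p = 0.314), Bdh1 0.54 (0.20 to 0.88, adjusted p = 0.387), Cpt1a 0.45 (0.14 to 0.76, adjusted p = 0.436) and Pex11a 0.75 (0.19 to 1.31, adjusted p = 0.488). The larger number of genes that passed in UN pups is thus not shown gene by gene to differ from NN pups. Without NN replicate 1 at 9 weeks, 28 were positive with a median of 0.33. An unadjusted p under 0.05 was reached by 17, all positive (6.52% of all probe sets higher and 3.39% lower). Vnn1 passed the adjusted p (1.52, adjusted p = 0.0385, 0.193% of all probe sets higher).

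**Figure D4:**
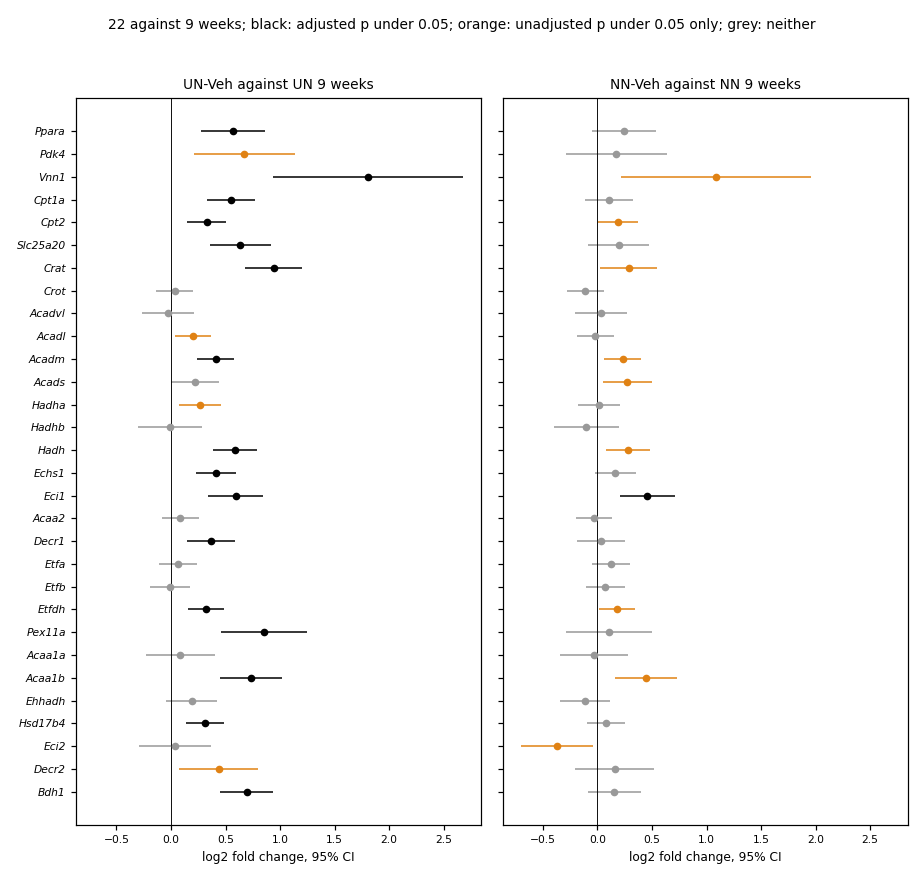
log2 difference of each of the 30 genes between 22 and 9 weeks with its 95% confidence interval, for UN-Veh over UN at 9 weeks and NN-Veh over NN at 9 weeks (black, adjusted p under 0.05; orange, unadjusted p under 0.05 only; grey, neither). In UN pups 16 genes are black and 27 lie above 0, and in NN pups Eci1 alone is black and 23 lie above 0.

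The further genes of the pathway moved in both directions over these ages. Of the 44 further oxidation and ketone body genes, 8 rose and 4 fell in UN-Veh livers against UN livers at 9 weeks, and 4 rose and 3 fell in NN-Veh livers against NN livers at 9 weeks. Over all probe sets 4.79% rose and 2.25% fell in UN pups, and 2.1% rose and 1.51% fell in NN pups. Acat1, a thiolase of ketone body metabolism, rose by 0.40 in UN pups (adjusted p = 0.0371) and differed by 0.40 in NN pups (adjusted p = 0.0566). Of the 24 other PPARA targets, 12 rose and 2 fell in UN pups, and 4 rose and 2 fell in NN pups. The fatty acid transporter Cd36 rose by 1.99 in UN pups and 1.43 in NN pups, and Cyp4a12b fell by 2.67 in UN pups and by 2.01 in NN pups. Stellate cell and fibroblast markers rose in 4 of 7 cases in UN pups (7.14 to 7.45 in UN-Veh livers, against 6.79 to 6.95 at 9 weeks), and 2 of 7 hepatocyte markers fell (10.40 to 10.52 in UN-Veh livers, against 10.70 to 10.78 at 9 weeks). In NN pups 1 of 7 stellate and 2 of 7 macrophage markers rose. Of the 14 fasting and feeding genes 5 rose and 1 fell by the adjusted p in UN pups, and 1 rose and 0 fell in NN pups. Of the 16 clock genes 0 rose and 1 fell in UN pups, and none passed in NN pups. Arntl varied widely at 9 weeks, at 7.38, 7.18 and 5.10 in UN livers and 8.01, 4.96 and 7.02 in NN livers. The part of these cells, of feeding and of the clock in the changes above was not tested.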

How the data were processed

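Liver RNA of 30 male pups was hybridised by the authors to Affymetrix MoGene 2.1 ST array strips, 1 liver per array. The deposited values are log2 signals per probe set, made by the authors with Affymetrix Expression Console, whose summarization and version are not given in the sources used here. The table held 41345 probe sets, values ran from 1.10 to 12.89, and array medians from 4.11 to 4.25. The number of arrays limits the precision. No 2 arrays held identical values.

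Probe sets named by at least 1 gene (25341) were tested as deposited, and 23328 of the 23521 named by 1 symbol matched RefSeq on GRCm38.p6. A gene with several probe sets was followed at the brightest. Among the 30 genes this concerned Crat alone, with 2 probe sets, and its other probe set is not described here. Group means were fitted in R 4.3.3 with the lmFit and eBayes functions of limma 3.58.1 (Benjamini-Hochberg over all 25341, threshold 0.05), within a cohort or over the 2 cohorts compared. The shared spread comes from all arrays of a fit. The script was tested on simulated data. Alternatives were single omissions, array weights, the methods' ANOVA and thresholds, other scalings and other probe set filters. The members and lists were chosen with earlier results of these data known. Values per liver are given for members past the threshold within an age, for the 3 largest differences of each comparison, and for Ppara, Cpt1a, Cpt2, Hadha, Ehhadh, Bdh1 and Pdk4. Other genes are named where they passed the threshold, and Slc25a20, Echs1, Hacl1, Arntl and Dbp were chosen after their values were seen. Python 3.11.15 with pandas 2.3.3 and matplotlib 3.10.9 made counts and figures.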

Additional observations from a re-analysis of the deposited data

Results flagged for a closer look

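Among 186 gene and group pairs with 4 livers each, counting the mean of the 30 genes as one, 24 held a liver whose gap to its nearest neighbour took more of the whole range of the group than the 95% limit of Dixon's test for 4 values. Chance alone gives about 1 in 20. The share of the range is given for each.

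UN replicate 14 at 17 weeks, the array with the lowest SD over all probe sets, accounted for 18 of the 24. It was the lowest for Echs1 (0.991), Acadvl (0.976), Hsd17b4 (0.974), Acaa2 (0.961), Hadh (0.951), Etfb (0.949), Etfa (0.919), Crot (0.914), Cpt1a (0.912), Acadl (0.888), Acadm (0.885), Hadha (0.881), Etfdh (0.881), Cpt2 (0.852), Decr2 (0.844), Eci1 (0.838) and Eci2 (0.833), and for the mean of the 30 genes (0.834). Acaa1b was not low in this liver, at 10.66, and Pdk4 was the highest of its group there, at 6.09.

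The other 6 lay elsewhere, which is no more than the 1 in 20 that chance alone gives. Acaa1b was set apart in UN replicate 13 at 17 weeks (0.878, at 9.93 against 10.66 to 10.76) and in UN-Veh replicate 25 (0.896), where the whole group spans only 10.77 to 10.83. Acadm was set apart in UN-Veh replicate 26 (0.846), at 11.38 against 11.32 to 11.33, and Crot in NN replicate 8 at 17 weeks (0.837), at 10.94 against 11.11 to 11.15. Decr1 was set apart in NN replicate 7 at 17 weeks (0.901), at 7.38 against 7.61 to 7.64, and Echs1 in NN-Veh replicate 16 (0.923), at 9.34 against 9.56 to 9.58.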

How the results depend on the processing

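No paired analysis was possible because the labels number the livers 1 to 30 without repeats, so that no number is shared between groups. Precision is limited by 3 or 4 livers per group and, for Hadhb, by a signal near the middle of the array. Counts below are of the 30 genes past an adjusted p under 0.05 unless stated. The shares of all probe sets are not given beside these adjusted counts. The counts thus do not show whether these genes moved more than the array as a whole.

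The methods' ANOVA gave 0 in UN-Veh against NN-Veh and 0 for the TUDCA average. All 30 arrays in 1 fit, where replicate 14 enters the shared spread, gave 0 in UN-Veh against NN-Veh, the TUDCA average, and 22 against 9 weeks in UN and in NN pups. Testing all 41345 probe sets gave 0 in UN-Veh against NN-Veh, the TUDCA average and NN-Veh against NN at 9 weeks. Only the brighter probe sets gave 2 in UN-Veh against NN-Veh, 1 in NN-TU against NN-Veh, 3 for the TUDCA average and 2 in NN-Veh against NN at 9 weeks. Array weights gave 3 in UN-Veh against NN-Veh, 6 in UN pups at 17 against 9 weeks and 0 in NN-Veh against NN at 9 weeks, with medians of 0.29 for UN pups at 17 against 9 weeks and 0.18 for its difference from NN pups. Repeated quantile normalization gave 1 in NN-TU against NN-Veh and 4 in NN-Veh against NN at 9 weeks, and medians of -0.041 in UN-TU against NN-TU, 0.057 in NN-TU against NN-Veh and -0.20 for the TUDCA interaction. A common array median gave 1 in NN-TU against NN-Veh. The cause of each was not tested.

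At an unadjusted p under 0.05, where the report gives the shares of all probe sets beside each comparison, the counts were 14 in UN-Veh against NN-Veh, 1 in UN-TU against NN-TU, 7 in NN-TU against NN-Veh, 11 in UN-TU against UN-Veh, 12 for the TUDCA average, 4 for its interaction, 1 in NN pups at 17 against 9 weeks, 10 in NN-Veh against NN at 9 weeks, 20 in UN-Veh against UN at 9 weeks and 7 for the difference of the 22-week changes. With a 2-fold change as well, they were 0 for the TUDCA average, 1 for its interaction and 1 in UN-Veh against UN at 9 weeks, where 0.0868%, 0.264% and 0.817% of all probe sets passed. The count was also 1 in UN-Veh against NN-Veh, where 26 of 25341 probe sets passed as higher and 15 as lower. It was 1 in NN-Veh against NN at 9 weeks, with 68 and 79 probe sets.

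With single arrays left out, counts ranged over 0 to 4 in UN-Veh against NN-Veh, 0 to 3 in NN-TU against NN-Veh, 0 to 1 in UN-TU against UN-Veh, 1 to 3 for the TUDCA average, 10 to 17 in UN-Veh against UN at 9 weeks, 0 to 4 in NN-Veh against NN at 9 weeks and 0 to 1 for the difference of the 22-week changes. For UN pups at 17 against 9 weeks they were 0 to 4, the highest without replicates 13 and 14 together, a choice made after seeing the data. Medians ranged over 0.18 to 0.24 in UN-Veh against NN-Veh, -0.19 to -0.10 in UN-TU against UN-Veh, -0.12 to -0.03 in NN-TU against NN-Veh, 0.06 to 0.19 in UN-TU against NN-TU, -0.13 to -0.07 for the TUDCA average, -0.13 to -0.02 for its interaction, 0.34 to 0.38 in UN-Veh against UN at 9 weeks, 0.04 to 0.17 in NN-Veh against NN at 9 weeks, 0.18 to 0.33 for their difference, -0.73 to 0.15 at 17 weeks, -0.10 to 0.02 at 9 weeks, -0.50 to 0.33 and 0.14 to 0.26 at 17 against 9 weeks in UN and NN pups, and -0.70 to 0.18 for their difference. Of 2013 values under these settings, for genes that had an unadjusted p under 0.05 in the comparison concerned, 78 lost and 36 gained the threshold.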

Other observations

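The mean of the 30 genes varied least among the 4 UN-Veh livers of the 8 groups. It had an SD of 0.008 in UN-Veh livers, against 0.067 in NN-Veh, 0.104 in NN-TU and 0.201 in UN-TU livers. Vnn1 had an SD of 0.03 and Pex11a of 0.06 in UN-Veh livers, against 0.31 and 0.28 in NN-Veh livers. Whether the spread differs between groups was not tested, and housing, litter and hour of sampling are not given per animal in the sources used here.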
